A study of Homo sapiens with 6 samples.

Results

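Mitochondrial ribosomal protein genes encode the protein part of the ribosome inside mitochondria, and their messenger RNA levels were compared between HEK293T cells given siRNA against LOC550643 and cells given a control siRNA. Members were the protein-coding genes whose symbol is MRPL (large subunit) or MRPS (small subunit) followed by a number. There were 77 of them among 26391 rows of the gene table, 48 MRPL and 29 MRPS, and all 77 passed the filter on low values that left 16253 genes for testing. HEK293T cells derive from human embryonic kidney and express the large T antigen of SV40. LOC550643 encodes a small protein that binds EDC4, part of the machinery that removes the cap from mRNAs, and the design asks whether steady-state mRNA levels differ once it is silenced. The LOC550643 siRNA group held 3 libraries of cells transfected with a pool of 4 siRNAs, and the control siRNA group held 3 libraries of cells that had a human non-targeting siRNA. Both groups were transfected with the same reagent at 50% confluency and harvested after 48 hours, and neither carried any other agent. Because each group had only 1 reagent, loss of the target cannot be told apart from other actions of the pool or of the control siRNA. In bulk RNA, fewer cells that express a gene and less RNA per cell cannot be told apart either.

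The mitochondrial ribosome translates the few membrane proteins of oxidative phosphorylation that the mitochondrial genome still encodes. Its rRNAs are made inside the organelle, while every one of its proteins is encoded in the nucleus, translated in the cytosol and imported. Some of these proteins descend from bacterial ribosomal proteins and others were added during the evolution of mitochondria. The small subunit decodes the mRNA, and the large subunit joins amino acids and passes the new chain through a tunnel that opens at the inner membrane.

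The target was listed under its earlier symbol LINC01420 and averaged 5.74 ± 0.292 CPM in LOC550643 siRNA libraries and 52.9 ± 2.88 CPM in control libraries (SD, n = 3 each). CPM here is the deposited value divided by the library total after scaling by the TMM method, in the usual unit of that name. Libraries held 8604236 to 35249993 read pairs in the LOC550643 siRNA group and 32309964 to 36082404 in the control group, as inferred from the values. LOC550643 siRNA replicate 3 was the shallowest, and the lowest member still had 239 read ends there. All 8 markers of HEK293 cells were at 1 CPM or more. They summed to 1175 to 1292 CPM in LOC550643 siRNA libraries and 1043 to 1164 CPM in control libraries. VIM alone averaged 870 CPM in LOC550643 siRNA libraries and 813 CPM in control libraries, most of that sum. By limma, NEFM and KRT18 were called higher (log2 fold changes 0.42 and 0.51), INA was called lower (-1.17) and the rest were not called. Markers of hepatocytes (0 of 4), keratinocytes (0 of 3) and blood cells (1 of 5) were almost all under 1 CPM. For melanocytes 2 of 4 markers reached it, with sums of 21.7 to 29.0 CPM in LOC550643 siRNA libraries and 38.8 to 41.8 CPM in control libraries and TYR at 0 in all libraries. For fibroblasts 2 of 5 reached it, with sums of 67.7 to 72.1 CPM in LOC550643 siRNA libraries and 69.0 to 77.3 CPM in control libraries. The part of these markers in the results was not tested.

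Most mitochondrial ribosomal protein mRNAs stayed close to their control level, and those that moved went both ways. With limma and Benjamini-Hochberg adjustment over all 16253 genes, 15 members were higher (19.5%), 13 were lower (16.9%) and 49 did not pass an adjusted p of 0.05. Among all genes tested, 35.6% were called, 17.5% higher and 18.2% lower, so the share of members called was near the background in both directions in this fit. The log2 fold change of the members, LOC550643 siRNA over control siRNA, had a median of 0.01, against a median of -0.02 over all genes tested. The quartiles were -0.16 and 0.17 for the members and -0.27 and 0.19 for all genes. The changes were small: 27 of the 28 called members differed by less than 1.5-fold, and MRPS34 was the exception. Thus 1 of 77 members was called and beyond that fold, against 10.3% of all genes tested. For each of the 49 members that were not called, the 95% interval of the difference lay inside 1.5-fold in either direction, and their log2 fold changes ran from -0.22 to 0.21.

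**Figure D1:**
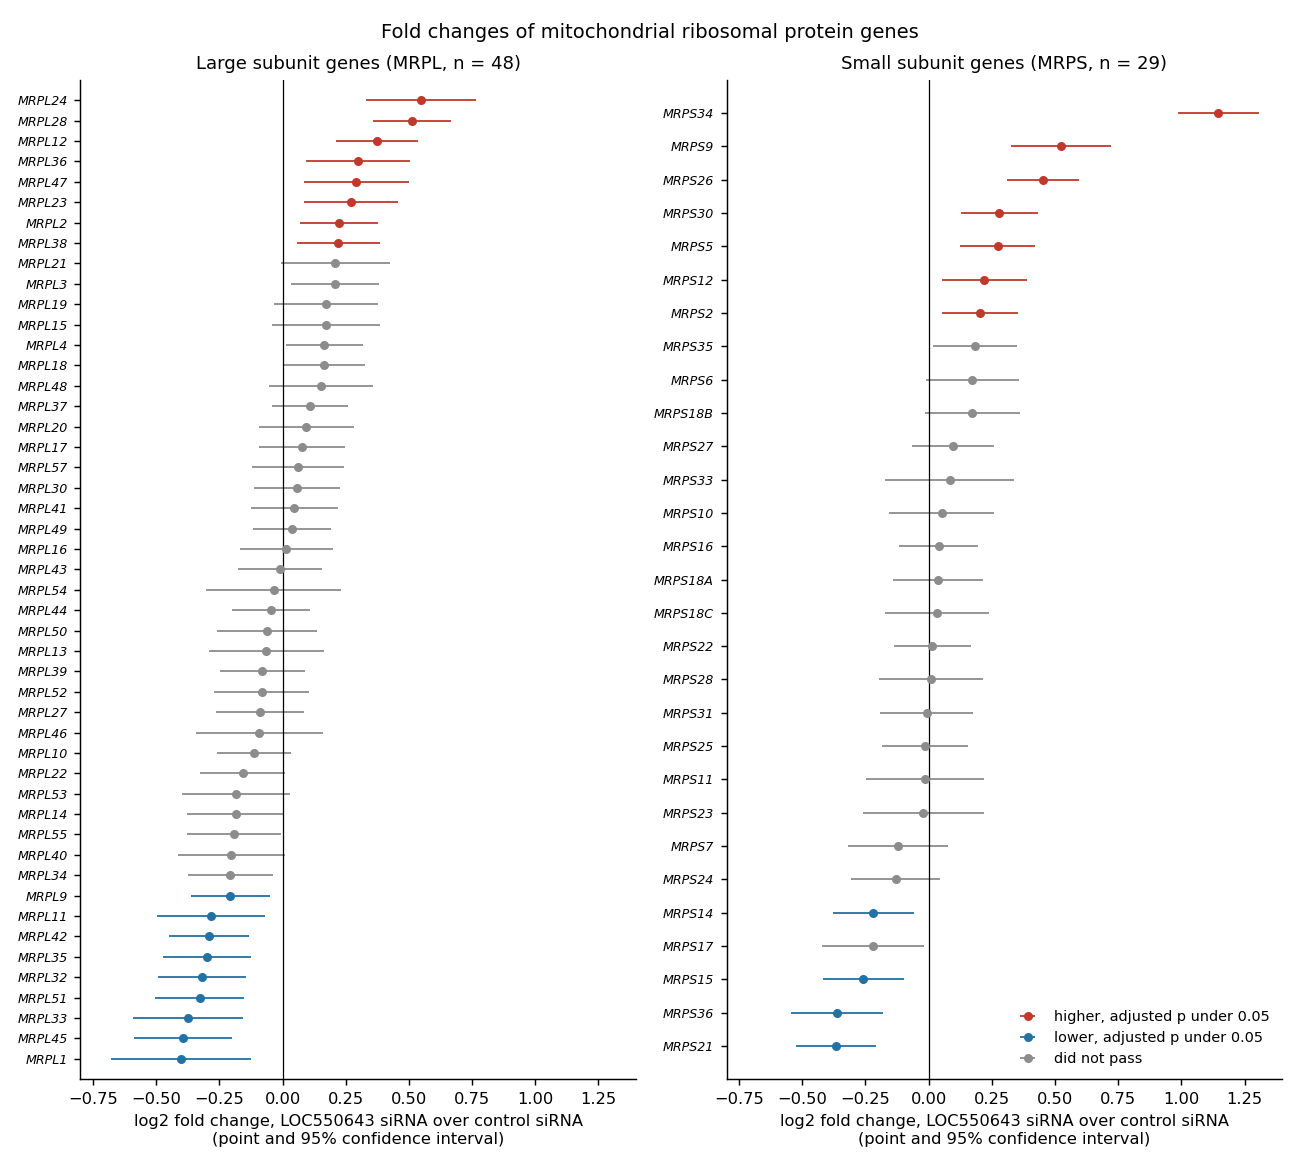
Log2 fold change, LOC550643 siRNA over control siRNA, of the 77 genes, MRPL in the left panel and MRPS in the right, in order of size, with 95% intervals from limma as bars and the call as colour. MRPS34 stands alone at 1.15, and all other members lie between -0.40 and 0.55.

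**Figure D2:**
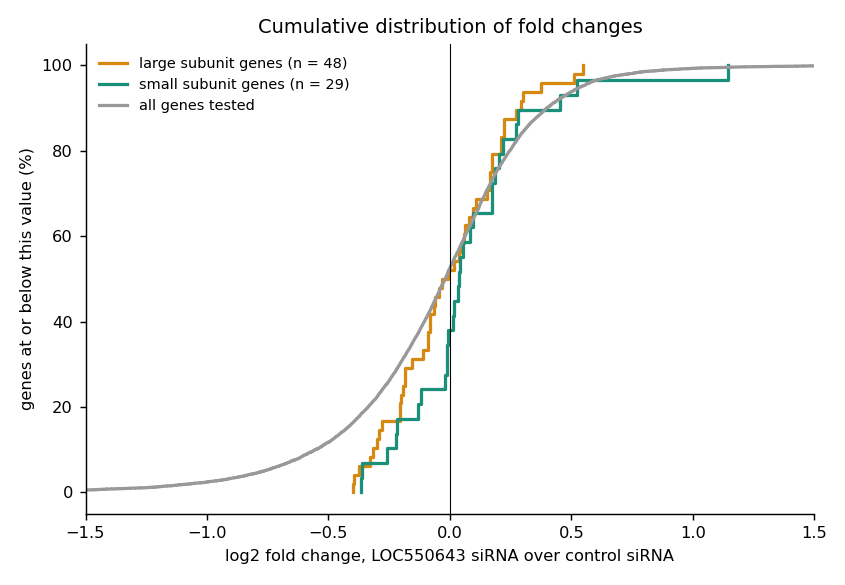
Cumulative share of genes (vertical axis) by log2 fold change (horizontal axis) for MRPL genes, MRPS genes and all genes tested. The SD is 0.259 for the members and 0.418 for all genes, and the medians of MRPL and MRPS genes are -0.02 and 0.04. That width is not particular to the members: nuclear respiratory chain and ATP synthase genes had an SD of 0.256 and cytosolic ribosomal protein genes one of 0.190. The lowest member averaged 16.3 CPM, while all genes tested went down to 0.22 CPM.

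MRPS34 rose most. It encodes a protein of the small subunit with no bacterial counterpart, and loss of it in patients destabilises the subunit and causes a form of Leigh syndrome. The gene (NM_001300900) lies on the minus strand at chr16:1821896-1823140 of hg19. Its level was 241, 255 and 234 CPM in LOC550643 siRNA libraries, against 118, 107 and 104 CPM in control libraries. Every LOC550643 siRNA library was thus above every control library by a wide margin. Means were 243 ± 10.6 and 110.0 ± 7.36 CPM (SD, n = 3 each), which is 2.21-fold, a log2 fold change of 1.15 with a standard error of 0.073 and a limma adjusted p of 2.11e-06. Leaving out any single library gave log2 fold changes of 1.11 to 1.20. In the authors' deposited table its log2 fold change was 1.14, and it was the single member past their threshold of 0.05 for the false discovery rate with a log2 change of 1.

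None of the genes beside MRPS34 was called. EME2, which encodes a subunit of a DNA structure-specific nuclease, starts 89 bases away on the other strand and averaged 5.29 CPM in LOC550643 siRNA libraries and 6.09 CPM in control libraries. NME3, SPSB3, NUBP2 and MAPK8IP3 had log2 fold changes of 0.18, 0.06, -0.10 and 0.12, and none of the 5 neighbours within 10000 bases passed the limma test. The 30 bases just before the RefSeq start of MRPS34, which lie inside EME2 in that annotation, hold 2 copies of the ETS motif, the sequence read by transcription factors such as GABP, the classical activator of nuclear genes for mitochondria. They are printed from RefSeq (GRCh38.p14, chr16:1773135-1773164, minus strand, gene strand, 5′ to 3′), with the motif CTTCCGG in capitals.
MRPS34: tCTTCCGGtgaCTTCCGGccggaccgctga

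Among the other small-subunit genes, MRPS9 and MRPS26 rose most. MRPS9, the homolog of a bacterial protein of the subunit's head, had 111, 108 and 109 CPM in LOC550643 siRNA libraries, against 78.5, 65.9 and 85.6 CPM in control libraries. Its groups did not overlap, with a log2 fold change of 0.52 (standard error 0.091, limma adjusted p 0.00113), but it overlaps UTAT33 and LOC102724691 on the other strand. MRPS26, a protein added in mitochondria, had 172, 181 and 167 CPM against 130.2, 124 and 126 CPM in control libraries. All 3 LOC550643 siRNA libraries were higher, and its log2 fold change was 0.45 (standard error 0.065, limma adjusted p 0.000363). MRPS5, a decoding-side protein whose bacterial homolog affects translation accuracy, had 132, 145 and 141 CPM in LOC550643 siRNA libraries and 116, 112 and 118 CPM in control libraries. That was a log2 fold change of 0.27 with a limma adjusted p of 0.00857, again without overlap. MRPS12 and MRPS2, both with bacterial homologs, had log2 fold changes of 0.22 and 0.20 with limma adjusted p of 0.0424 and 0.0374, and each was called in 1 of the 6 fits that leave out a library.

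MRPS30 carries a small-subunit name but sits in the large subunit in structures of the ribosome. It had 53.8, 50.9 and 54.2 CPM in LOC550643 siRNA libraries and 41.8, 44.5 and 44.5 CPM in control libraries. The groups did not overlap, with a log2 fold change of 0.28 and a limma adjusted p of 0.00926.

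In the large subunit the rises were led by MRPL24, MRPL28 and MRPL12. MRPL24, whose bacterial homolog starts assembly of the subunit and lies near the tunnel exit, is at chr1:156707094-156710923 on the minus strand of hg19. It had 88.6, 77.2 and 76.8 CPM in LOC550643 siRNA libraries, against 58.7, 47.5 and 60.3 CPM in control libraries. Its groups did not overlap, and its log2 fold change was 0.55 with a standard error of 0.099 and a limma adjusted p of 0.00143. MRPL28, also the homolog of a bacterial protein, had 146, 148 and 135 CPM in LOC550643 siRNA libraries, against 105, 96.1 and 99.7 CPM in control libraries. It lies at chr16:417384-420569 of hg19, on the same chromosome as MRPS34, and its log2 fold change was 0.51 (standard error 0.071, limma adjusted p 0.000271).

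MRPL12, the flexible stalk protein that brings translation factors to the ribosome, had 166, 159 and 152 CPM in LOC550643 siRNA libraries and 131, 114 and 122 CPM in control libraries. All libraries of the first group were above all of the second, with a log2 fold change of 0.37 and a limma adjusted p of 0.00242. MRPL36, MRPL47, MRPL23, MRPL2 and MRPL38 rose by log2 fold changes of 0.22 to 0.30 with limma adjusted p of 0.0274 to 0.0386. Those 5 were called in 1 or 2 of the 6 fits that leave out a library, whereas MRPS34, MRPL24, MRPS9, MRPL28, MRPS26, MRPL12 and MRPS5 were called in all 6.

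**Figure D3:**
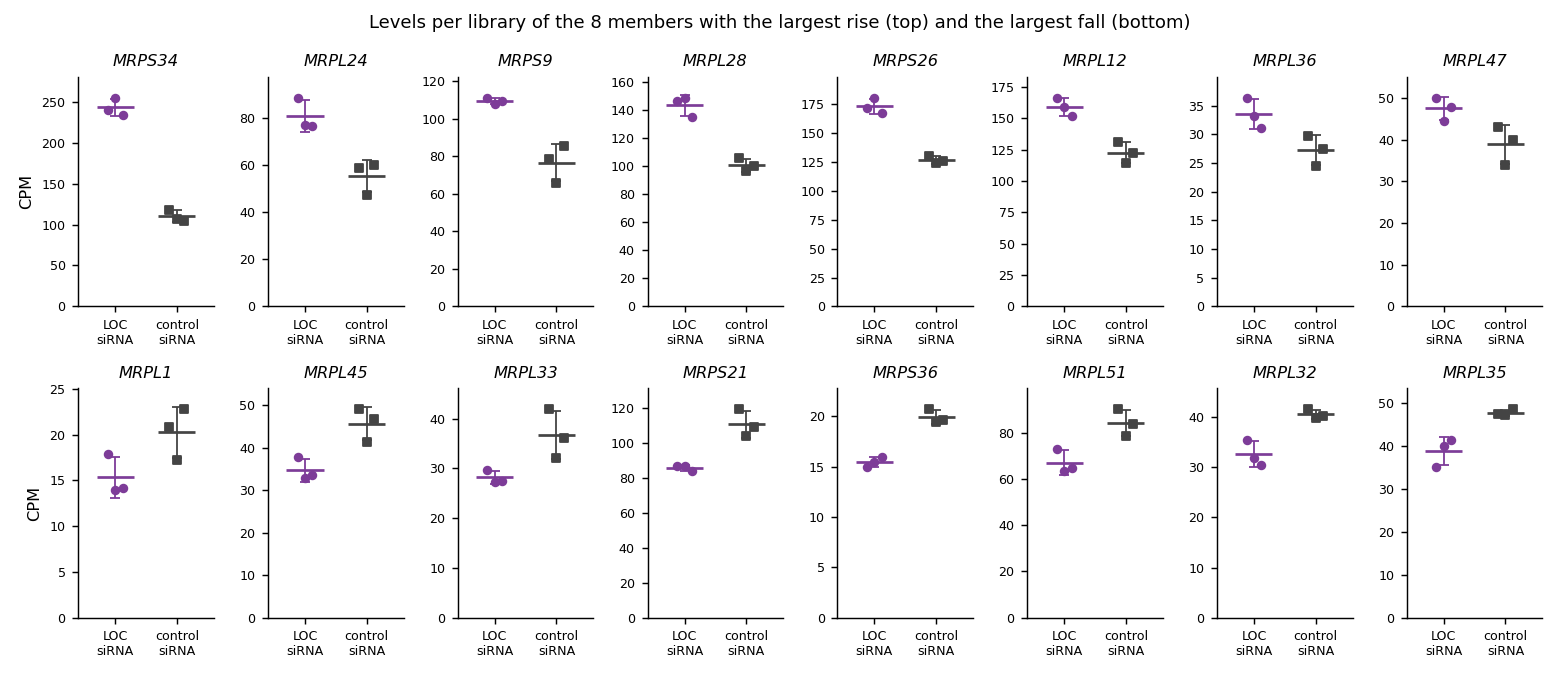
Level in each library (CPM, axes from 0) of the 8 members with the largest rise (top) and the 8 with the largest fall (bottom), LOC550643 siRNA libraries (LOC siRNA) left of control libraries, with the mean as a line and the SD as a bar (n = 3 each). For MRPS34 the points lie at 234 to 255 CPM and at 104 to 118 CPM, and of the 16 genes only MRPL1 has groups that overlap.

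Of the 13 members that fell, 9 were MRPL genes. MRPL1 forms the mobile L1 stalk beside the site where spent tRNAs leave, and it had 17.9, 13.9 and 14.2 CPM in LOC550643 siRNA libraries, against 20.8, 17.2 and 22.7 CPM in control libraries. Its log2 fold change of -0.40 was the largest fall together with that of MRPL45 (limma adjusted p 0.0288), yet the groups overlap and the call was kept in 2 of the 6 fits without a library. MRPL45 lines the tunnel exit and anchors the ribosome to the inner membrane. It had 37.8, 32.8 and 33.5 CPM in LOC550643 siRNA libraries and 49.0, 41.4 and 46.6 CPM in control libraries, without overlap (log2 fold change -0.40, standard error 0.088, limma adjusted p 0.00512). MRPL33, a homolog of a bacterial protein, had 29.8, 27.2 and 27.5 CPM against 41.9, 32.1 and 36.1 CPM in control libraries, a log2 fold change of -0.37 with a limma adjusted p of 0.0125. The call was kept in 4 of the 6 fits and lost without LOC550643 siRNA replicate 2 (limma adjusted p 0.0509) and without control replicate 1 (0.066). MRPL32, a protein that in yeast and mouse must be cut by the m-AAA protease before it joins the ribosome, had 35.5, 31.9 and 30.4 CPM in LOC550643 siRNA libraries and 41.6, 39.9 and 40.3 CPM in control libraries. MRPL32, MRPL35, MRPL42 and MRPL51 fell without overlap by log2 fold changes of -0.29 to -0.33 (limma adjusted p 0.00848 to 0.0127), and the call held in all 6 fits without a library.

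Of the small-subunit genes, MRPS21 fell most. It is the homolog of a bacterial platform protein and had 86.4, 86.7 and 83.5 CPM in LOC550643 siRNA libraries, against 119, 104 and 109 CPM in control libraries. Its 3 LOC550643 siRNA libraries lay below all 3 control libraries (log2 fold change -0.37, standard error 0.071, limma adjusted p 0.00229). MRPS15 and MRPS14, both with bacterial homologs, had log2 fold changes of -0.26 and -0.22 with limma adjusted p of 0.0173 and 0.0383, and each was called in 2 of the 6 fits without a library. MRPS36, now assigned to the 2-oxoglutarate dehydrogenase complex in place of the ribosome, had 15.0, 15.5 and 16.0 CPM in LOC550643 siRNA libraries and 20.7, 19.4 and 19.7 CPM in control libraries. It was lower without overlap, with a log2 fold change of -0.36 and a limma adjusted p of 0.00575.

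Among proteins that work side by side, calls went in both directions. In the lateral stalk, where elongation factors bind, MRPL12 rose while MRPL11 of the stalk base had 49.9, 43.6 and 41.7 CPM in LOC550643 siRNA libraries and 59.9, 48.2 and 56.6 CPM in control libraries. MRPL11 was called lower (log2 fold change -0.28, limma adjusted p 0.0422) although its groups overlap, and the call was kept in 2 of the 6 fits without a library, with limma adjusted p of 0.0059 to 0.173. MRPL10, which ties the stalk to its base, had 105, 108 and 108 CPM against 121, 109 and 117 CPM in control libraries and was not called (log2 fold change -0.11, limma adjusted p 0.216). Of 8 proteins around the tunnel exit, MRPL24, MRPL47 and MRPL23 were higher, MRPL45 was lower and 4 were not called. Of 8 proteins of the central protuberance, the crown of the large subunit, MRPL38 was higher and the other 7 were not called. The shares over all genes tested were 17.5% higher and 18.2% lower.

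The 3 paralogs of bacterial S18, which occupy separate places in the ribosome, were all uncalled. MRPS18A had 44.1, 43.8 and 41.2 CPM in LOC550643 siRNA libraries and 44.8, 38.0 and 43.2 CPM in control libraries (log2 fold change 0.04, limma adjusted p 0.749). MRPS18B had 106, 102 and 106 CPM against 98.9, 80.7 and 99.7 CPM in control libraries (log2 fold change 0.17, limma adjusted p 0.141), and its values are uncertain because the table gives it 7 genome positions. MRPS18C, which overlaps FAM175A, had 30.3, 27.8 and 27.2 CPM in LOC550643 siRNA libraries and 29.8, 24.5 and 29.4 CPM in control libraries (log2 fold change 0.03, limma adjusted p 0.817). The groups overlapped for MRPS18A and MRPS18C but not for MRPS18B.

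By origin, 11 of 46 members named after a bacterial counterpart were higher (23.9%) and 9 lower (19.6%). Their median log2 fold change was 0.04. Of the other 31, which structural nomenclature names as mitochondria-specific (MRPS18A and MRPS18B among them, despite their kinship to S18) or which lie outside the ribosome (MRPS36), 4 were higher and 4 lower, with a median of -0.01. That was 12.9% in each direction, where 17.5% of all genes tested were higher and 18.2% lower. Both sets held rises and falls, and the difference between them was not tested. Without the 14 members that overlap another gene and the member with several positions, 13 of 62 were higher (21%) and 12 lower (19.4%).

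Large and small subunit genes had medians close to each other and to that of all genes. Of 48 MRPL genes, 8 were higher, 9 were lower and 31 were not called, with a median log2 fold change of -0.02. Of 29 MRPS genes, 7 were higher, 4 were lower and 18 were not called, with a median of 0.04. That was 16.7% and 18.8% of MRPL genes and 24.1% and 13.8% of MRPS genes, against 17.5% and 18.2% of all genes tested. Groups did not overlap for 12 MRPL genes on the higher side and 11 on the lower, and for 10 and 4 MRPS genes, where 23.7% and 24.9% of all genes tested did not overlap in those directions. With members placed by structures of the ribosome instead of by name, 9 of 50 large-subunit genes were higher and 9 lower, and 6 of 26 small-subunit genes were higher and 3 lower.

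Library by library, the MRPL genes summed to 3359, 3204 and 3185 CPM in LOC550643 siRNA libraries and to 3300.0, 2928 and 3190 CPM in control libraries. The MRPS genes summed to 2128, 2134 and 2093 CPM in LOC550643 siRNA libraries, against 1950, 1759 and 1903 CPM in control libraries. The MRPL sums overlapped between the groups, and the MRPS sums did not. The ratio of the MRPL to the MRPS sum averaged 1.53 ± 0.0399 in LOC550643 siRNA libraries and 1.68 ± 0.0137 in control libraries (SD, n = 3 each). MRPS34 carried most of that gap, since without it the ratio was 1.73 ± 0.041 in LOC550643 siRNA libraries and 1.78 ± 0.0161 in control libraries, and the groups overlapped.

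Control siRNA replicate 2 moved with the members. It was the lowest of the 3 control libraries for 71 of the 77 members (92.2%), against 39.9% of all genes tested, among them 13 of the 15 that were higher and all 13 that were lower. Without that library 8 members were higher (10.4%) and 19 lower (24.7%), against 16.1% and 17.6% of all genes in that fit, with median log2 fold changes of -0.08 for MRPL and -0.03 for MRPS genes. It was also the library that differed most from its replicates across all genes, and its part in the counts of members was not tested.

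**Figure D4:**
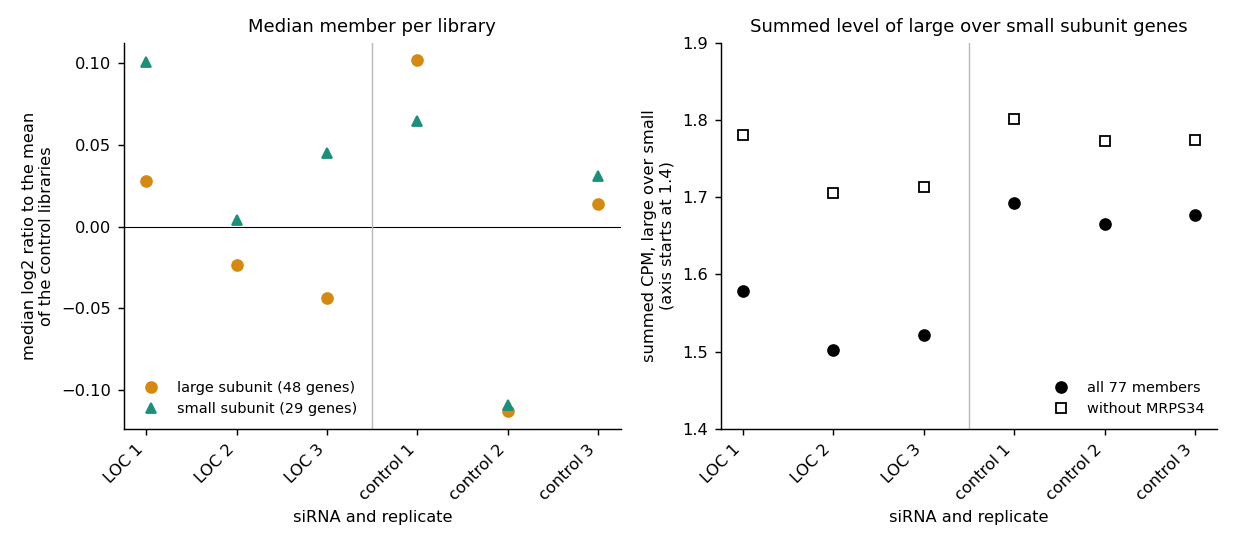
Left, the median over MRPL genes (circles) and MRPS genes (triangles) of the log2 ratio of each library to the mean of the control libraries, with LOC550643 siRNA libraries (LOC) left of control libraries. Control replicate 2 is lowest for both at -0.11. Right, the summed CPM of MRPL over MRPS genes per library, on an axis from 1.4, with all members (filled) and without MRPS34 (open): the filled points separate the groups and the open ones do not.

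Per kilobase of transcript, the median level was 45.7 CPM for MRPL and 43.9 CPM for MRPS genes. MRPL37 was highest of the members at 187 CPM per kilobase and was not called, with 291, 285 and 281 CPM in LOC550643 siRNA libraries and 275, 251 and 270.1 CPM in control libraries (log2 fold change 0.11, limma adjusted p 0.235). MRPL22, which lines the exit tunnel, was lowest at 11.4 CPM per kilobase, with 34.6, 34.8 and 32.8 CPM in LOC550643 siRNA libraries and 39.2, 35.4 and 39.5 CPM in control libraries. Over the 77 members the log2 fold change went with the log2 level per kilobase at r = 0.41 and rho = 0.33, a description over genes that share the same 6 libraries.

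The members that rose had transcripts richer in G and C than those that fell. Median GC content was 60.3% for the 15 higher members, 43.3% for the 13 lower and 46.8% for the rest, against 49.0% over all genes tested. When genes were split into 5 equal bins by GC content, the most GC-rich bin held 14 members, of which 8 were higher and 0 lower, where 663 of 3120 genes tested were higher and 540 lower. In the most AT-rich bin, 1 of 13 members was higher and 5 were lower, against 419 and 557 of all 3120 genes. Over members the correlation of GC content with log2 fold change was r = 0.38 and rho = 0.31, and over 15598 genes r = 0.04 and rho = 0.05. These are descriptions over genes, which share libraries and base composition and are not replicates. With trends of GC content and length removed from each library, 24 members were higher (31.2%) and 16 lower (20.8%), against 21.9% and 22.3% of the genes in that fit, so the share of members on the higher side was then above the background.

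**Figure D5:**
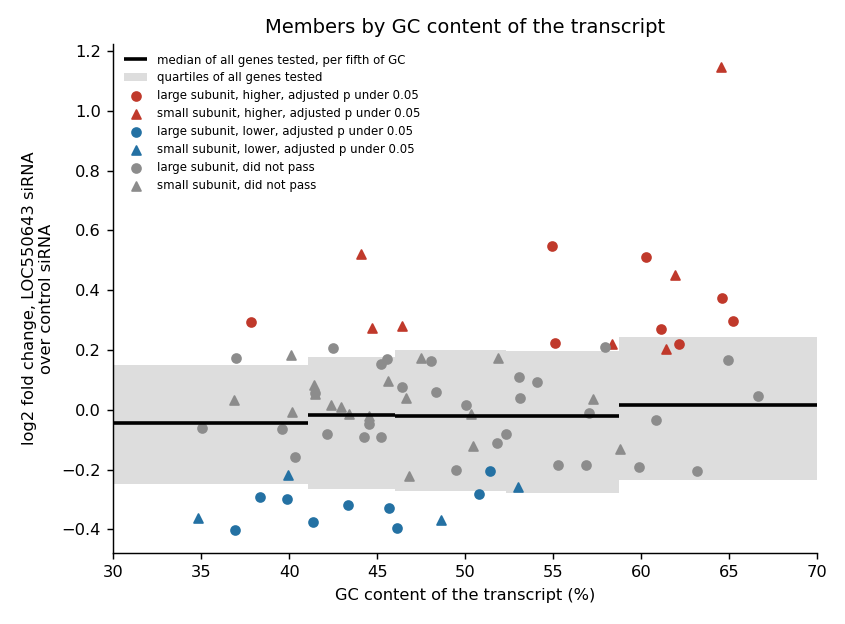
Log2 fold change, LOC550643 siRNA over control siRNA (vertical axis), against transcript GC content in percent (horizontal axis) for the 77 members, with the call as colour and the subunit as shape; black lines and grey bands are the median and quartiles of all genes tested in each of 5 bins. Higher members have a median GC content of 60.3% and lower members one of 43.3%.

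Many mitochondrial ribosomal protein genes share their upstream stretch with a gene that starts on the opposite strand. Such a neighbour within 1000 bases was found for 24 of 76 members (31.6%), against 1634 of 14062 protein-coding genes tested (11.6%). Of the called members, 7 had such a neighbour, which was called in the same direction for 0 of them and in the other direction for 3. Over all genes tested, 17.5% were called higher and 18.2% lower, so 7 pairs are too few to tell these counts from that share. The matching counts over all genes with such a neighbour were not taken. SARS2, the mitochondrial seryl-tRNA synthetase, starts beside MRPS12 and was lower, with 33.5 CPM in LOC550643 siRNA libraries and 42.6 CPM in control libraries (log2 fold change -0.34, limma adjusted p 0.00437), while MRPS12 was higher. NDUFB5, a complex I subunit beside MRPL47, was lower with a log2 fold change of -0.37, and NCAPD2, a condensin subunit beside MRPL51, was higher with 0.20, each opposite to its partner. The stretch between the RefSeq starts of MRPS12 and SARS2, 180 bases long in that annotation where the starts in the deposited hg19 table lie 58 bases apart, is printed because the genes on its sides moved in opposite directions (RefSeq, GRCh38.p14, chr19:38930764-38930943, plus strand, 5′ to 3′). It holds no ETS motif, so no letter is in capitals, but it holds CCAAT, a motif found before 27.9% of members and 34.4% of the tested genes.
MRPS12: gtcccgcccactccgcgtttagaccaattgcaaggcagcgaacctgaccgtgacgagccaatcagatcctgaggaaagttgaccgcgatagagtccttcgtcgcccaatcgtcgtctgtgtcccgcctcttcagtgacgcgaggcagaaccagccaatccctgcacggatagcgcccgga

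RefSeq start sites were matched for 68 of the 77 members, and the 250 bases before each were searched on both strands. The ETS motif CCGGAAG, which reads CTTCCGG on the other strand, was found before 22 of 68 members (32.4%), against 14.7% of 10751 tested protein-coding genes. The YY1 motif AAGATGGC was found before 5 members (7.35%, against 1.66%), and the NRF1 motif, the core of its palindromic site, before 8 (11.8%, against 9.70%). The GC box GGGCGG, read by SP1, was before 54.4% of members and 67.1% of the tested genes. By call, 4 of 13 higher, 3 of 11 lower and 15 of 44 uncalled members held the ETS motif, so it stood before members of every class. A match describes letters in these windows and not a bound site. The last 80 bases before the start are shown for a member that rose, MRPS26 (chr20:3045972-3046051, plus strand), and for 3 that fell, MRPL45 (chr17:38297088-38297167, plus), MRPL33 (chr2:27771639-27771718, plus) and MRPL1 (chr4:77862750-77862829, plus), from RefSeq in GRCh38.p14, 5′ to 3′, with the ETS motif in capitals.
MRPS26: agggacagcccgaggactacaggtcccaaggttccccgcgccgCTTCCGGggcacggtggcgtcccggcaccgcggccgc
MRPL45: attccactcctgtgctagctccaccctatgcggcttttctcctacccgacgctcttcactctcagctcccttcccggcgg
MRPL33: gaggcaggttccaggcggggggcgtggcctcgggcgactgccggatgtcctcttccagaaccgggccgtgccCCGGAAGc
MRPL1: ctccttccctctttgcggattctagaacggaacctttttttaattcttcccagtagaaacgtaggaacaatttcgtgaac

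G and C make up 76.2% of the stretch of MRPS26, which rose, and 60.0%, 73.8% and 41.2% of those of MRPL45, MRPL33 and MRPL1, which fell. Over the 250 bases, the median GC content was 64.8% before 13 higher members, 57.6% before 11 lower and 59.8% before 44 uncalled ones, against 65.2% before the tested genes. Of the factors that read these motifs, GABPA, NRF1 and YY1 were looked up, and none of the 3 was called. GABPA, the DNA-binding subunit of GABP, had 90.8, 105 and 111 CPM in LOC550643 siRNA libraries and 91.5, 98.5 and 96.6 CPM in control libraries (log2 fold change 0.09, limma adjusted p 0.402). NRF1 and YY1 had log2 fold changes of 0.14 and 0.08 with limma adjusted p of 0.265 and 0.383. Among 15 regulators of nuclear genes for mitochondria, TFDP1 was higher (6.67%), 2 were lower (13.3%) and 12 were not called, where 17.5% and 18.2% of all genes tested were. The lower ones were ESRRA, an orphan nuclear receptor that activates such genes, with 39.6, 40.8 and 40.8 CPM in LOC550643 siRNA libraries and 59.8, 56.7 and 60.4 CPM in control libraries (log2 fold change -0.55, limma adjusted p 0.000149), and PPARGC1A, its coactivator (log2 fold change -0.33, limma adjusted p 0.034).

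Of 6 proteins of the mitochondrial ribosome with other symbols, GADD45GIP1 alone was called. It had 84.4, 80.1 and 81.6 CPM in LOC550643 siRNA libraries and 64.9, 56.2 and 60.5 CPM in control libraries, without overlap (log2 fold change 0.44, limma adjusted p 0.000874). DAP3, a GTP-binding protein of the small subunit, and PTCD3, a pentatricopeptide protein of the same subunit, had log2 fold changes of 0.09 and -0.02 and were not called. Of 18 translation factors and partners of the ribosome, 2 were higher and 2 lower, 11.1% each, against 17.5% and 18.2% of all genes tested. TUFM, the elongation factor that delivers aminoacyl-tRNA, had 386, 402 and 381 CPM in LOC550643 siRNA libraries, against 294, 267 and 288 CPM in control libraries (log2 fold change 0.46, limma adjusted p 0.000499). OXA1L, the insertase that takes new chains from the tunnel exit into the inner membrane, had 138, 137 and 132 CPM against 210.4, 192 and 216 CPM in control libraries (log2 fold change -0.60, limma adjusted p 8.93e-05). Both differed without overlap between the groups, in opposite directions.

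Of 24 genes for assembly of the ribosome and modification of its rRNA, 5 were higher, 3 were lower and 16 were not called, with a median log2 fold change of 0.07. That was 20.8% higher and 12.5% lower, against 17.5% and 18.2% of all genes tested. WBSCR16 (RCC1L), an assembly factor, rose most, with 20.5, 24.1 and 21.9 CPM in LOC550643 siRNA libraries and 13.4, 14.1 and 14.4 CPM in control libraries (log2 fold change 0.67, limma adjusted p 0.000262). NOA1, a GTPase needed for the small subunit, had 57.1, 59.7 and 55.2 CPM against 73.5, 68.3 and 72.7 CPM in control libraries (log2 fold change -0.32, limma adjusted p 0.00421). Of 20 mitochondrial aminoacyl-tRNA synthetase genes and partners, 5 were higher (25%), among them TARS2 and EARS2 with log2 fold changes of 0.55 and 0.54. In the same list 3 were lower (15%), among them VARS2 with -0.40.

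Larger sets put these counts beside the cytosolic ribosome and the proteins the mitochondrial ribosome serves. Over all genes tested, 17.5% were higher and 18.2% lower. Of 79 cytosolic ribosomal protein genes, 2 were higher (2.53%), 7 were lower (8.86%) and 70 were not called, with a median log2 fold change of -0.07. Of 76 nuclear genes for the respiratory chain and ATP synthase, 12 were higher (15.8%), 11 were lower (14.5%) and 53 were not called, with a median of -0.03. NDUFA2, an accessory subunit of complex I, had 50.3, 43.3 and 50.5 CPM in LOC550643 siRNA libraries, against 82.4, 66.6 and 73.6 CPM in control libraries (log2 fold change -0.63, limma adjusted p 0.000434). These counts are descriptions, and the differences between the lists were not tested.

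In the authors' deposited table, 9 of the 77 members were higher and 10 lower at an adjusted p under 0.05, where 15.0% and 16.7% of the genes tested here were. All 19 were among the 28 called here, in the same direction.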

How the data were processed

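Poly-A RNA of 3 LOC550643 siRNA and 3 control siRNA samples was sequenced as paired reads. Per the submitters' processing notes, reads were aligned to hg19 with STAR 2.4.0 and counted over exons with HOMER. The deposited per-gene values are a signal (coverage) that the authors scaled to a common total per library. Low values were whole multiples of a step per library, and higher values were rounded to the nearest multiple. The step was taken as 1 read end, which gave the read pairs. No strand option stands in the header's command line, so overlapping genes on opposite strands cannot be told apart. The authors' log2 fold changes and adjusted p-values, deposited in the same table, are quoted only as theirs.

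Since the values are scaled and not whole counts, the main test was limma 3.58.1 with a mean trend (two-sided, R 4.3.3). It was run, once libraries were scaled by TMM, on log2 of the value plus a pseudocount of 1 (0.034 CPM). Benjamini-Hochberg adjustment was over genes with at least 10 read pairs by edgeR's filter. Fold changes on this scale understate those of low genes. The procedure was first tested on simulated data. Transcript GC content came from GENCODE mapped to GRCh37, with a value for all 77 members.

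Members and gene lists were chosen with earlier results of these data known. Named members are the called ones with the largest changes, those of fixed role groups and the highest and lowest per kilobase. In other lists, most named genes are those with the smallest p. The neighbours of MRPS34 and of called members, and the factors that read the motifs, were looked up after their values were known. Pseudogenes and the antisense gene MRPL23-AS1 were left out. No label says that replicates were separate cultures, and p-values then cover only the spread among these samples, which may be technical. Replicates differed beyond sampling noise in every pair (chi-square per degree of freedom 5.47 to 41.8). Alternatives covered scaling, filters, the pseudocount, edgeR 4.0.16 and DESeq2 1.42.0 on recovered reads, GC correction, thinning, a replicate block and each library left out.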

Additional observations from a re-analysis of the deposited data

How the results depend on the processing

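All 28 called members kept their direction in every alternative run. Against 15 higher and 13 lower members, library totals gave 8 and 20 (28.6% of calls higher, and 34.3% over all genes). Upper-quartile scaling gave 9 and 14 (39.1%, and 43.3% over all genes). An adjusted p under 0.01 gave 8 and 6 (57.1%, and 50.3% over all genes). Removing GC and length trends gave 24 and 16, and 23 and 16 together with a replicate block; higher members were then 31.2% and 29.9%, against 21.9% and 20.4% of all genes. Leaving out each library gave 8 to 13 higher and 7 to 19 lower. In those fits 12.5% to 16.1% of all genes were higher and 13.6% to 17.6% lower, against 17.5% and 18.2% with all libraries. Of the members, 10.4% to 16.9% were higher and 9.09% to 24.7% lower. Higher calls were 8 without LOC550643 siRNA replicate 1, 9 without its replicate 2, 8 without control replicate 2 and 9 without control replicate 3. Lower calls were 7 without LOC550643 siRNA replicate 2, 7 without control replicate 1, 19 without control replicate 2 and 8 without control replicate 3. The cause was not tested.

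Median log2 fold changes ran from -0.08 to 0.04 for MRPL and from -0.03 to 0.07 for MRPS genes across the fits without a library, and MRPL minus MRPS from -0.09 to -0.03 (-0.06 with all libraries). Without control replicate 2 and LOC550643 siRNA replicate 3, chosen after seeing the data, 11 were higher (14.3%) and 15 lower (19.5%). Of all genes in that fit, 16.8% and 17.3% were. EdgeR gave 15 and 13, DESeq2 15 and 12, and voom 15 and 12. In those fits 19.5% of members were higher and 15.6% to 16.9% lower. Of all genes, 17.6% to 18.4% were higher and 17.97% to 18.4% lower. No filter gave 12 and 11 (15.6% and 14.3%), against 11.9% and 12.8% of all genes. Thinning to the shallowest library gave 10 and 12 (12.99% and 15.6%), against 16.3% and 16.5% of all genes.

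The uncalled MRPS18A turned to log2 fold changes of -0.038 with library totals, -0.013 with thinning and -0.0015 without both doubted libraries, and ran from -0.043 to 0.086 across the fits without a library, lowest without control replicate 2. MRPS18C turned to -0.044 with library totals and -0.027 without both, and ran from -0.070 to 0.082 across the fits without a library, with -0.013 without LOC550643 siRNA replicate 1 and its lowest value without control replicate 2. Over 23 named members, 437 of 483 alternative values kept direction and call, 31 lost the call, 7 gained it and 8 reversed.

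Deviations of same-numbered libraries from their group means correlated at 0.06, -0.28 and -0.12, and those of other pairs at -0.14 to 0.25. Deviations within a group of 3 are tied to each other, so these values cannot tell whether samples were prepared in pairs. With the replicate block 13 members were higher (16.9%) and 12 lower (15.6%), against 16.4% and 16.7% of all genes.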

Other observations

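Genes for mitochondrial protein import, folding and proteolysis were called mostly on the higher side. Of 26 such genes, 11 were higher, 2 were lower and 13 were not called by limma with Benjamini-Hochberg adjustment over all genes. That was 42.3% higher and 7.69% lower, against 17.5% and 18.2% of all genes tested, with a median log2 fold change of 0.12. LONP1, the ATP-dependent protease of the matrix, had 485, 462 and 423 CPM in LOC550643 siRNA libraries and 177, 163 and 171 CPM in control libraries (log2 fold change 1.42, limma adjusted p 8.85e-07), a larger difference than any ribosomal protein gene described above. HSPA9, the matrix chaperone of the import motor, had 625, 619.9 and 576 CPM against 342, 297 and 388 CPM in control libraries (log2 fold change 0.83, limma adjusted p 8.72e-05). TOMM22, a receptor of the outer membrane, had 71.6, 64.5 and 74.3 CPM against 43.3, 36.5 and 39.8 CPM in control libraries (log2 fold change 0.82, limma adjusted p 4.7e-05). The groups did not overlap for any of the 3. AFG3L2, a subunit of the m-AAA protease that in mouse cuts MRPL32, averaged 140.0 ± 10.0 CPM in LOC550643 siRNA libraries and 92.2 ± 2.75 CPM in control libraries (SD, n = 3 each), a log2 fold change of 0.60 with a limma adjusted p of 0.000117. SPG7, another subunit of that protease, was not called (log2 fold change 0.05, limma adjusted p 0.575), and a link to MRPL32 was not tested. TOMM40 and PHB2 were the lower members of the list.

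Of 18 genes for mitochondrial DNA copying, transcription and RNA processing, 9 were higher, 1 was lower and 8 were not called, with a median log2 fold change of 0.17. That was 50% higher and 5.56% lower, against 17.5% and 18.2% of all genes tested. POLG, the mitochondrial DNA polymerase, averaged 149 ± 9.12 CPM in LOC550643 siRNA libraries and 107 ± 7.05 CPM in control libraries (SD, n = 3 each, log2 fold change 0.49, limma adjusted p 0.000581). POLRMT, the mitochondrial RNA polymerase, had 185, 191 and 169 CPM against 137, 134 and 127 CPM in control libraries (log2 fold change 0.45, limma adjusted p 0.000624). LRPPRC, which stabilises mitochondrial mRNAs, averaged 299 ± 17.4 CPM in LOC550643 siRNA libraries and 235 ± 18.4 CPM in control libraries (SD, n = 3 each), with a log2 fold change of 0.35 and a limma adjusted p of 0.0051. All 3 were higher without overlap. The lists were chosen with earlier results of these data known, and no difference between lists was tested.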
